A study of Mus musculus with 2 samples.

Results

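The platelet-derived growth factor (PDGF) family of the mouse genome comprises the ligand genes Pdgfa, Pdgfb, Pdgfc and Pdgfd and the receptor genes Pdgfra and Pdgfrb. These genes were taken by name, and all 6 were found among the 32183 genes of the count tables. Their RNA was followed across fibroblasts, mural cells (smooth muscle cells and pericytes), blood endothelium, neurons and glia of the celiac and superior mesenteric ganglia, which are sympathetic ganglia in front of the aorta that send axons to the abdominal organs. The study made 2 single-cell libraries of 1 group with 10x Genomics 3' v3.1 chemistry, from dissected ganglia that were digested and triturated. It used 20 mice in total, males and females in equal number, 7 to 8 weeks old. The sources used here give no strain, genotype or treatment, nor which animals entered which library, so the comparisons are between cell populations of the same suspensions. P-values rest only on how populations varied between these libraries beyond a shift common to a library, a spread shared over all populations. This spread may be technical.

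PDGF ligands are secreted dimers that bind and pair receptor tyrosine kinases. PDGF-A and PDGF-C bind PDGF receptor alpha, PDGF-B binds both receptors, and PDGF-D acts mainly through PDGF receptor beta. PDGF-A and PDGF-B are cut to their mature form by furin-like proteases inside the cell, whereas PDGF-C and PDGF-D are released as latent factors that plasminogen activators or matriptase cleave outside it. In blood vessels, PDGF-B from endothelium recruits pericytes that carry PDGF receptor beta, and PDGF receptor alpha is widely used to mark fibroblasts of connective tissue and nerve sheaths.

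In GENCODE M21 on GRCm38, Pdgfa lies at chr5:138976014-138997370 on the minus strand and overlaps 6330403L08Rik, a gene of the opposite strand. Pdgfb lies at chr15:79995874-80014977 on the minus strand and overlaps Gm41361 of the opposite strand and Mir7213 of the same strand. Pdgfc lies at chr3:81036416-81214040 on the plus strand and overlaps Gm16000 of the opposite strand. Pdgfd lies at chr9:6168584-6378850 on the plus strand, with Ddi1 of the opposite strand inside it, and Pdgfra lies at chr5:75152292-75198215 on the plus strand and overlaps Gm42802 and Gm42803 of the opposite strand and Mir7025 of the same strand. The sources used here do not state a strand setting for counting, so reads of overlapping genes may have been shared. Levels were measured for 6330403L08Rik, Gm41361, Gm16000, Ddi1 and Gm42802, and the highest of these in the 17 populations were 12.7 and 18.4 CPM of 6330403L08Rik in smooth muscle and 12.6 and 11.2 CPM of Gm41361 in neurons. CPM are counts of unique molecular identifiers (UMIs, each marking 1 captured RNA molecule), per 1000000 UMIs of a population in 1 library.

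RefSeq start-region sequences of GRCm38.p6, which run from 250 bases before the start of a transcript to 50 bases after it, were at hand for 4 of the 6 genes. They are shown for Pdgfd and Pdgfc, ligands found in both endothelium and smooth muscle, and for Pdgfra, the receptor of fibroblasts, 5' to 3' on the strand of the gene, as the sequence context of the levels that follow. Capitals mark matches to the TATA box TATAAA, the GC box core GGGCGG, the Ets core GGAAGT, the letters CCAAT and the CArG box, the serum response factor motif of smooth muscle genes, each searched on both strands.
Pdgfd, chr9:6168236-6168535, plus strand: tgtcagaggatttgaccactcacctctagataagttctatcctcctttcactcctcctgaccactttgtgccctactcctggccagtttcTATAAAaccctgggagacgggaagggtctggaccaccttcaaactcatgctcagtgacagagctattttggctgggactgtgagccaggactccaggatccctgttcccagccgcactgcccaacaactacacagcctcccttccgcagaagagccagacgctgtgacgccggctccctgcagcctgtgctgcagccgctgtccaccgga
Pdgfc, chr3:81036166-81036465, plus strand: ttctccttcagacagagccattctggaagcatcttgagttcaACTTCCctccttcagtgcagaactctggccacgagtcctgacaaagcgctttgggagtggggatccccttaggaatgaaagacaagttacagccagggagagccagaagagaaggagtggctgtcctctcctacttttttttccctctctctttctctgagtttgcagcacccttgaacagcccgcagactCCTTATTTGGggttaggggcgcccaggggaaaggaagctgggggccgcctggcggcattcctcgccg
Pdgfra, chr5:75152001-75152300, plus strand: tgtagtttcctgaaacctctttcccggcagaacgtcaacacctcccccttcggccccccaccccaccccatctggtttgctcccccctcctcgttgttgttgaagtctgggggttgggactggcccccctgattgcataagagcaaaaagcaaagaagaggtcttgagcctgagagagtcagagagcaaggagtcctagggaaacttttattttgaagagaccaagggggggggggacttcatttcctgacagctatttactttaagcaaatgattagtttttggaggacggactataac
The region of Pdgfd held TATAAA at -160 from the start, a motif in 13.6% of 32851 such regions. The region of Pdgfc held a CArG box at -17, a motif in 1.63% of them, and GGAAGT on the opposite strand at -208, a motif in 23.8%. That of Pdgfra held none of the motifs, and neither of the 2 regions listed for Pdgfa held a match other than GGGCGG, which 35.7% of all regions hold. CCAAT, in 37.4% of all regions, was in none of those listed for the PDGF genes. In the printed regions no match overlapped another. The matches describe these letters only, and no factor was measured here.

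The libraries held 94521010 and 95235439 UMIs, with medians of 6483 and 6498 UMIs per barcode. After removal of likely doublets, 11930 and 11575 cells were kept. Cells were grouped by marker genes of a random part of their UMIs without the 6 genes, and levels were measured on the other part. The 5 main classes held 2249 and 2285 fibroblasts, 603 and 605 mural cells, 922 and 814 endothelial cells, 436 and 408 neurons and 4944 and 4738 glial cells in libraries 1 and 2. The summed level of the 10 fibroblast markers was 51619 and 51530 CPM in fibroblasts, that of the 10 blood endothelial markers was 9615 and 10049 CPM in endothelium, and that of the 13 neuron markers was 19971 and 20999 CPM in neurons. All markers of the 3 lists had at least 1 UMI in the summed counts of their own class. Detected has this meaning wherever summed marker levels are given. For naming clusters, a marker counted as detected with a UMI in at least 10% of cells. By that measure the fibroblast clusters of 1839, 1371 and 446 cells had 8 of 10 markers, and that of 878 cells had 10. Beds of the endothelium were named by further lists, and the capillary name is the weakest. It covers clusters of 733 and 391 cells with mean standardised marker levels of 0.51 and 0.61, against 1.23 for venous and 1.66 for arterial cells. They had 6 and 7 of 8 capillary markers detected in at least 10% of cells, but none among their 10 leading genes. The larger capillary cluster had a median of 3156 UMIs per cell. Own markers were also absent from the 10 leading genes of the neuron clusters of 693 and 151 cells and the fibroblast cluster of 446 cells. The same held for the macrophage cluster of 772 cells, the satellite glia cluster of 666 cells and the glia that the lists did not divide. Dbh, an enzyme of noradrenaline synthesis, stood at 702 and 733 CPM in neurons and at 143 to 360.1 CPM in the other populations, and the part of free RNA in the low levels given here was not tested. The libraries shared 64 barcodes, and the values that change without these cells are named beside the results.

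The receptors were held by different populations of the connective tissue and vessel wall. Pdgfra, the alpha receptor, was highest in fibroblasts, with 559 and 548 CPM in fibroblasts of libraries 1 and 2 (5018 and 5293 UMIs). The next levels in the 17 populations were 22.9 and 57.2 CPM in mast cells, which rest on a small population, and 26.8 and 21.8 CPM in perineurial cells, the sheath cells around nerve bundles. Pericytes held 18.1 and 15.9 CPM, and each of the 12 remaining populations averaged less than lymphatic endothelium, which stood at 35.7 and 9.09 CPM. Fibroblasts were therefore separated from every other population in both libraries, and neighbours from mast cells downward in the order of levels overlapped between libraries.

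Fibroblasts averaged 554 ± 7.91 CPM of Pdgfra and mural cells 10.5 ± 3.86 CPM (SD, n = 2 libraries), a 58.1-fold difference on the fitted scale (log2 5.86, SE 0.14, adjusted p = 1.83e-69). Folds, standard errors and p-values adjusted by the Benjamini-Hochberg method are from edgeR's quasi-likelihood test over all genes, with composition factors between populations, so a fitted fold can depart from the ratio of CPM. Pdgfra was 189.8-fold higher in fibroblasts than in endothelium, which stood at 3.03 ± 0.544 CPM (log2 7.57, SE 0.14, adjusted p = 7.31e-80). The fibroblast level was 99.7-fold above neurons, at 6.89 ± 0.800 CPM, and 164-fold above glia, at 3.69 ± 0.474 CPM. Fibroblasts thus stood apart from each other main class in the alpha receptor. The size of the difference from mural cells was less certain than its direction, at 7.08 with another random split of the UMIs, 4.46 with likely doublets kept and 7.58 with cells thinned to equal UMIs, on the log2 scale.

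Pdgfrb, the beta receptor, was highest in pericytes, the contractile cells wrapped around capillaries, with 787 and 853 CPM (522 and 589 UMIs). Smooth muscle, the contractile layer of larger vessels, followed with 310.0 and 295 CPM. Fibroblasts held 78.5 and 80.0 CPM and perineurial cells 61.6 and 72.2 CPM. These 4 populations did not overlap with one another or with the populations below them, of which mast cells were the highest at 38.2 and 38.1 CPM, on 5 and 6 UMIs. Blood endothelium was at the other end of the order, with 0 and 1.80 CPM in arterial, 1.92 ± 0.0552 CPM (SD, n = 2) in venous and 0.462 and 3.68 CPM in capillary cells. Pdgfrb lies on the plus strand of chromosome 18, and the next gene downstream is Csf1r, the receptor of macrophage colony-stimulating factor. Csf1r stood at 974 and 956 CPM in macrophages, where Pdgfrb stood at 1.89 and 2.64 CPM, and sharing of reads between these neighbours was not tested.

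Mural cells as a class averaged 487 ± 17.2 CPM of Pdgfrb and endothelium 1.82 ± 1.45 CPM, a 253-fold difference (log2 7.98, SE 0.17, adjusted p = 3.85e-75). Endothelium held few molecules, and this log2 difference was 7.34 without library 1 and 9.09 without library 2. Fibroblasts, at 79.2 ± 1.04 CPM, lay 5.56-fold below mural cells (log2 -2.47, SE 0.07, adjusted p = 3.86e-59). Fibroblasts were in turn 45.5-fold above endothelium (log2 5.51, SE 0.21, adjusted p = 6.87e-48, with 4.85 without library 1 and 6.64 without library 2) and 9.49-fold above glia, which averaged 9.17 ± 0.175 CPM. The beta receptor was thus shared between mural cells and fibroblasts at unequal levels, whereas the alpha receptor was largely held by fibroblasts.

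**Figure D1:**
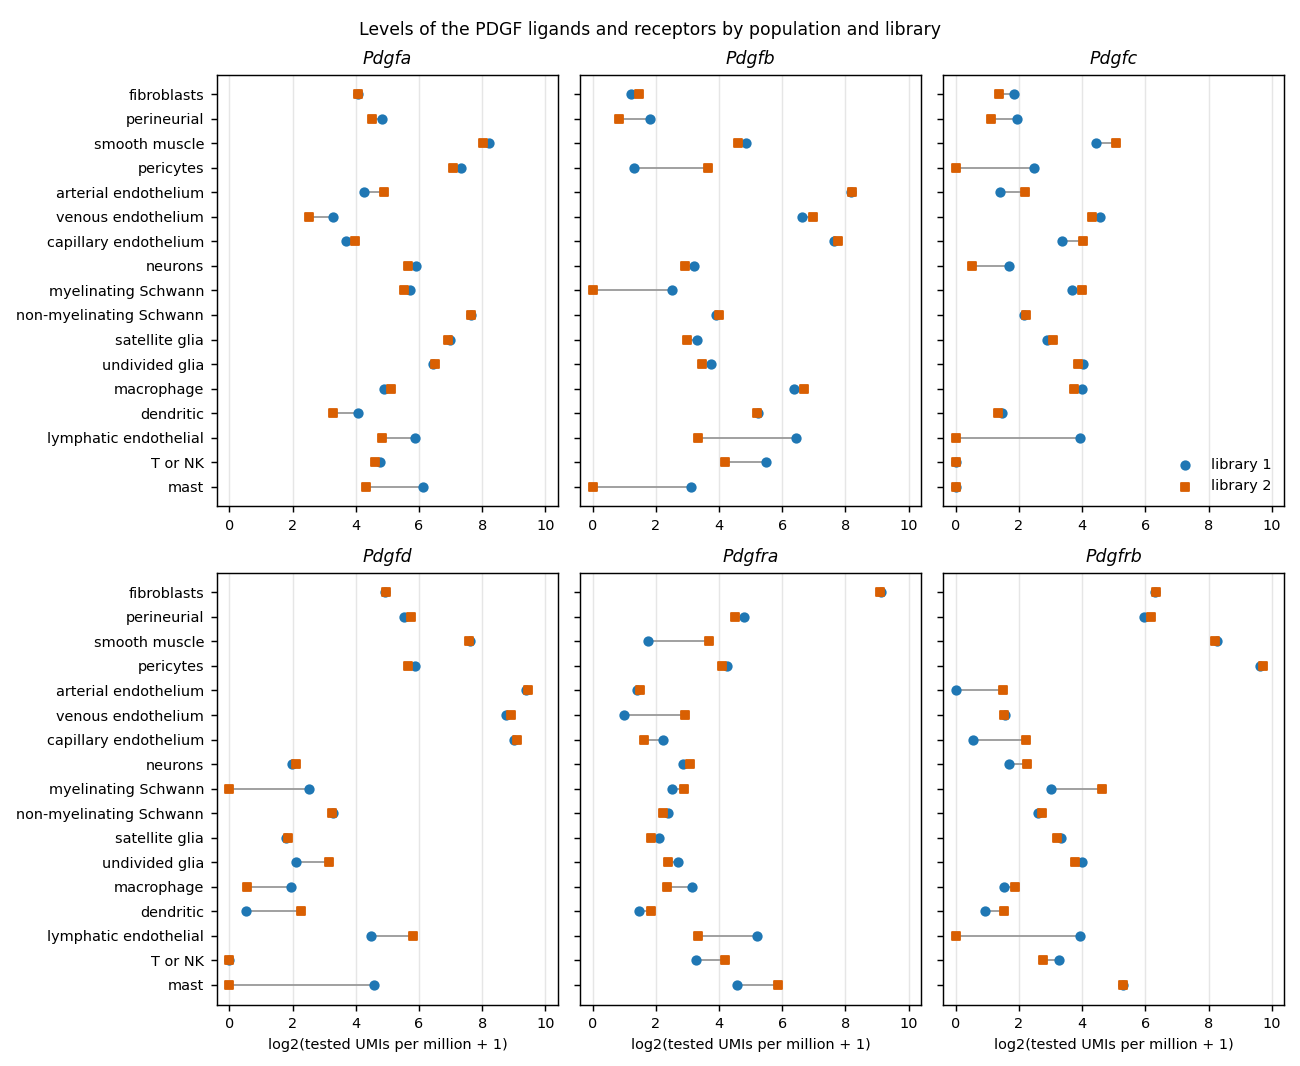
CPM of each PDGF gene in each population, drawn as log2(CPM + 1), with a point for each library joined by a line. Pdgfra stands apart in fibroblasts at 559 and 548 CPM, Pdgfrb in pericytes at 787 and 853 CPM and smooth muscle at 310.0 and 295 CPM, and Pdgfd in blood endothelium, where Pdgfb is also highest.

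Within the vessel wall, smooth muscle and pericytes differed in 5 of the 6 genes, where 17.9% of all 16263 genes tested differed between the same populations. Pdgfrb was lower in smooth muscle, at 302 ± 10.8 CPM, than in pericytes, at 819.9 ± 46.2 CPM (log2 -1.25, SE 0.09, adjusted p = 7.62e-24). The 4 ligand genes were higher in smooth muscle. Pdgfa had 276 ± 26.2 CPM in smooth muscle and 148 ± 18.9 CPM in pericytes, a 2.13-fold difference (SE of log2 0.13, adjusted p = 9.82e-12). Pdgfd had 192 ± 1.62 CPM in smooth muscle and 53.3 ± 5.72 CPM in pericytes, a 4.12-fold difference (log2 2.04, SE 0.19, adjusted p = 7.26e-17, and log2 2.82 with another random split). Mural cells thus carried ligand transcripts beside those of the beta receptor.

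The other ligands rest on few molecules in these cells. Pdgfb had 27.8 and 23.4 CPM in smooth muscle, against 1.51 and 11.6 CPM in pericytes (1 and 8 UMIs), and its log2 difference of 2.13 (adjusted p = 4.04e-04) became 1.21 without library 1 and 4.33 without library 2. Pdgfc had 20.7 and 32.7 CPM in smooth muscle (26 and 39 UMIs), against 4.52 and 0 CPM in pericytes (3 and 0 UMIs), with a log2 difference of 3.74 (95% interval 2.50 to 4.98, adjusted p = 9.00e-07) that became 9.34 without library 1 and 2.35 without library 2. Both ligands were higher in smooth muscle in each library, while the size of the difference is loosely set. Pdgfra had 2.38 and 11.7 CPM in smooth muscle and 18.1 and 15.9 CPM in pericytes (adjusted p = 0.143), a log2 difference of -1.10 that passed with all UMIs (log2 -1.31, adjusted p = 0.0251), whereas with likely doublets kept it was higher in smooth muscle (log2 2.19, adjusted p = 4.31e-06). The 10 markers of the fibroblast list summed to 569 and 750 CPM in smooth muscle and 3910 and 2394 CPM in pericytes, against 51619 and 51530 CPM in fibroblasts, and their part in the Pdgfra values was not tested. The 10 markers of the blood endothelial list summed to 107 and 77.9 CPM in smooth muscle, with 10 and 8 of them detected and Tie1 and Tek at 0 in library 2, against 9615 and 10049 CPM in endothelium; their part in the Pdgfb level of smooth muscle was not tested.

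Blood endothelium carried the ligands of the beta receptor. Pdgfd encodes a ligand activated outside the cell. It had 670.1 and 700.3 CPM in arterial, 513 and 554 CPM in capillary and 429 and 479 CPM in venous endothelium. These 3 pooled levels did not overlap, but the capillary level joins clusters on either side of venous cells. The larger capillary cluster, of 733 cells, held 409 and 420 CPM, and the smaller, of 391 cells, 582 and 626 CPM. Smooth muscle came next at 193 and 191 CPM. Pericytes with 57.3 and 49.2 CPM, perineurial cells with 45.4 and 53.1 CPM and fibroblasts with 29.7 and 30.3 CPM formed a lower tier, in which pericytes and perineurial cells overlapped and which took in lymphatic endothelium, at 21.4 and 54.5 CPM on 3 and 6 UMIs. Neurons held 2.97 and 3.31 CPM and satellite glia 2.48 and 2.59 CPM. In the vessel wall Pdgfd was thus highest in the endothelial beds, lower in smooth muscle and lowest in pericytes, and it was low in neurons and satellite glia. The order among the beds themselves was not stable under test, as given with the endothelial comparisons.

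Endothelium as a class averaged 535 ± 27.3 CPM of Pdgfd and neurons 3.14 ± 0.239 CPM, a 200.2-fold difference (log2 7.64, SE 0.16, adjusted p = 8.58e-74). Fibroblasts, with 29.7 and 30.3 CPM, lay below endothelium (log2 -4.10, SE 0.08, adjusted p = 2.58e-76). Mural cells, at 143 ± 5.17 CPM, were below endothelium (log2 -1.99, SE 0.09, adjusted p = 4.15e-43). Fibroblasts were in turn below mural cells (log2 -2.10, SE 0.11, adjusted p = 3.07e-34). The class means of Pdgfd thus ran from endothelium over mural cells to fibroblasts. The fibroblast mean was carried by 1 of its 4 clusters, at 131 and 125 CPM, which lay above pericytes, and the others held 6.6 to 12.1 CPM, near the 8.78 and 8.48 CPM of non-myelinating Schwann cells.

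Pdgfb, the pericyte-recruiting ligand, was also led by blood endothelium, with 286 and 294 CPM in arterial, 201 and 219 CPM in capillary and 98.8 and 124 CPM in venous cells. Macrophages held 81.1 and 101 CPM (343 and 422 UMIs), a level that overlapped with venous endothelium. Fibroblasts stood at 1.34 and 1.76 CPM, the lowest mean of the 17 populations. The blood endothelial markers summed to 85.6 and 89.0 CPM in macrophages, with all 10 detected, against 9615 and 10049 CPM in endothelium, and their part in the Pdgfb level of macrophages was not tested. Smooth muscle with 27.8 and 23.4 CPM was the highest of the populations outside endothelium and immune cells.

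Among the main classes Pdgfb was highest in endothelium. Fibroblasts averaged 1.55 ± 0.299 CPM and endothelium 194 ± 10.9 CPM, which put fibroblasts 118-fold below (log2 -6.88, SE 0.15, adjusted p = 4.96e-72). Mural cells, at 18.9 ± 0.251 CPM, lay 10.9-fold below it (log2 -3.44, SE 0.15, adjusted p = 3.45e-43). The endothelial level was 30.8-fold above neurons, at 7.40 ± 1.10 CPM (log2 4.95, SE 0.16, adjusted p = 1.06e-54), and 20.3-fold above glia, at 10.1 ± 1.01 CPM (log2 4.34, SE 0.10, adjusted p = 6.09e-71). Pdgfb and its receptor gene Pdgfrb were thus led by different layers of the vessel wall.

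**Figure D2:**
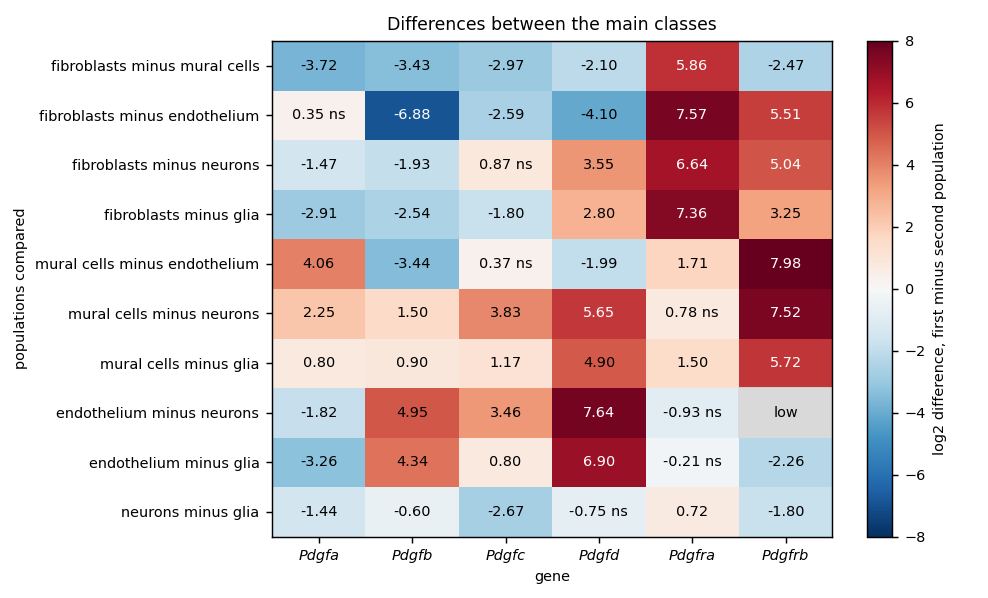
Log2 difference of each PDGF gene between each pair of the 5 main classes, first class over second; ns marks a difference that did not pass an adjusted p of 0.05 and grey cells marked low give no fold, because neither class had 10 UMIs in each library. The rows of fibroblasts show the high Pdgfra, up to 7.57 against endothelium, and the mural rows the high Pdgfrb, up to 7.98 against endothelium.

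Over the 10 pairs of the 5 main classes, 52 of 60 comparisons of the 6 genes passed the test, 30 higher and 22 lower in the first-named class, where 57.4% of all comparisons of genes passed. Each pair differed in many genes, so a call alone is common here, and the sizes carry the description. Scaling by library totals in place of TMM factors moved the median of all genes by up to 0.30 on the log2 scale, and by over 0.1 in 13 of 22 contrasts, and RLE factors moved it by up to 0.21, and by over 0.1 in 5. Neither turned the direction of a PDGF gene among the comparisons with a fold, other than Pdgfc in perineurial cells over fibroblasts, where no difference was called. Fibroblasts differed from mural cells in all 6 genes, with Pdgfra higher and 5 lower (background 41.6%). They differed from endothelium in 5 (background 56.7%), from neurons in 5 (background 69.8%) and from glia in 6 (background 60.7%). Mural cells differed from endothelium in 5 (background 46.2%), from neurons in 5, all higher in mural cells (background 59.9%), and from glia in 6, all higher in mural cells (background 45.9%).

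Endothelium differed from neurons in 4 genes (background 66.7%) and from glia in 5 (background 60.4%), and neurons differed from glia in 5 (background 65.9%). Of the comparisons that did not pass, Pdgfa in fibroblasts, at 15.8 ± 0.0118 CPM, and endothelium, at 13.0 ± 1.26 CPM, differed by 0.35 on the log2 scale (95% interval -0.03 to 0.72, adjusted p = 0.116). Mural cells and endothelium held Pdgfc at 17.9 ± 3.95 and 13.1 ± 2.03 CPM (log2 0.37, 95% interval -0.16 to 0.91, adjusted p = 0.284). The first passed with all UMIs (log2 0.43, adjusted p = 0.0170), with only the populations compared (log2 0.37, adjusted p = 0.0498) and with doublets kept, at 1.09 (adjusted p = 2.72e-06), which lies outside that interval, and the second passed with all UMIs (log2 0.46, adjusted p = 0.0426). Pdgfc in fibroblasts over neurons (log2 0.87, adjusted p = 0.198) passed under 3 alternatives, with values of 1.05 to 1.46, Pdgfra in mural cells over neurons (log2 0.78, adjusted p = 0.0650) with doublets kept (log2 1.52) and Pdgfd in neurons over glia (log2 -0.75, adjusted p = 0.0960) with all UMIs (log2 -0.99). Pdgfra in endothelium, at 3.03 ± 0.544 CPM, and neurons, at 6.89 ± 0.800 CPM, differed by -0.93 on the log2 scale (95% interval -1.77 to -0.08, adjusted p = 0.0501), and the difference passed without the shared barcodes (adjusted p = 0.0391) and under 9 other alternatives. Some calls were not stable: Pdgfra in mural cells, at 10.5 ± 3.86 CPM, was above endothelium (log2 1.71, adjusted p = 2.63e-04) and glia (adjusted p = 4.63e-05), but by 0.38 and 0.43 with another random split of the UMIs, neither of which passed. Those of Pdgfb (log2 -0.60, adjusted p = 0.0387) and Pdgfra (log2 0.72, adjusted p = 0.0467) between neurons and glia also ended, for Pdgfb with DESeq2, RLE or total scaling and 4 other alternatives, and for Pdgfra with 5.

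The remaining class differences set fibroblasts and mural cells against neurons and glia. Mural cells were above neurons in Pdgfd (log2 5.65, SE 0.23, adjusted p = 2.55e-45) and Pdgfrb (log2 7.52, SE 0.17, adjusted p = 1.34e-72), and above glia in Pdgfd (log2 4.90) and Pdgfrb (log2 5.72). Fibroblasts were above neurons in Pdgfd (log2 3.55) and Pdgfrb (log2 5.04) and below them in Pdgfa (log2 -1.47) and Pdgfb (log2 -1.93). Neurons were below glia in Pdgfc, at 1.32 ± 1.28 CPM in neurons and 7.91 ± 0.280 CPM in glia (log2 -2.67, with -4.32 without library 1 and -1.96 without library 2), and in Pdgfrb (log2 -1.80). Neurons thus had the lowest or next to lowest level of the 5 classes in Pdgfb, Pdgfc, Pdgfd and Pdgfrb.

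The sizes depended on the treatment of doublets and depth more than the directions did. With likely doublets kept, the log2 differences of fibroblasts from mural cells were -2.95 for Pdgfa, -2.83 for Pdgfb and -2.31 for Pdgfc, and that of Pdgfb between fibroblasts and endothelium was -6.28. Those of fibroblasts from glia were then -2.25 for Pdgfa and -1.87 for Pdgfb, and those of mural cells from neurons 3.12 for Pdgfc, 4.82 for Pdgfd and 6.63 for Pdgfrb. With cells thinned to equal UMIs, the difference of Pdgfa between mural cells and endothelium was 2.85 and that between endothelium and glia -2.41, and that of Pdgfrb between mural cells and neurons was 11.1. All of these kept the direction given above.

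Pdgfa, a ligand of the alpha receptor, was highest in mural cells and glia. Smooth muscle held 295 and 258 CPM (371 and 308 UMIs), non-myelinating Schwann cells, the glia of thin axons, 198 and 201 CPM, pericytes 161 and 135 CPM, and satellite glia, the glia around the cell bodies of neurons, 125 and 119 CPM. These 4 pooled levels did not overlap in that order, but clusters of glia fell within the pericyte range. The larger cluster of non-myelinating Schwann cells (1648 cells) held 155.8 and 156.1 CPM and the smaller (1462 cells) 223 and 230 CPM. Satellite glia held 120 and 114 CPM in their larger cluster (2720 cells) and 149.8 and 147 CPM in the smaller (666 cells). Undivided glia, which the glial marker lists did not separate, came next with 85.9 and 90.7 CPM and overlapped with neither neighbour. Neurons followed with 59.1 and 49.7 CPM and myelinating Schwann cells with 51.8 and 44.8 CPM, and overlapped with each other. Fibroblasts, the carriers of the alpha receptor, held 15.8 CPM in both libraries, and venous endothelium 8.80 and 4.69 CPM, the lowest of the 17 populations. Pdgfa and Pdgfra were therefore led by separate populations.

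Fibroblasts averaged 15.8 ± 0.0118 CPM of Pdgfa and mural cells 231 ± 25.5 CPM, which put fibroblasts 13.1-fold below mural cells (log2 -3.72, SE 0.11, adjusted p = 2.95e-59). Mural cells were 16.7-fold above endothelium, at 13.0 ± 1.26 CPM (log2 4.06, SE 0.14, adjusted p = 5.55e-53). They were 1.74-fold above glia, which averaged 132 ± 1.14 CPM (log2 0.80, SE 0.08, adjusted p = 1.82e-16). Neurons, at 54.4 ± 6.67 CPM, lay below glia (log2 -1.44, SE 0.10, adjusted p = 5.82e-26). Pdgfa was thus higher in mural cells, glia and neurons than in the fibroblasts with the alpha receptor, while endothelium, the other vessel class, had the lowest mean of the 5 classes.

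The 8 markers of the satellite glia list were all detected in neurons and summed to 1967 and 1180 CPM there, against 38078 and 36709 CPM in satellite glia, and their part in the Pdgfa level of neurons was not tested. Neurons with at least 5000 UMIs held 53.5 and 49.3 CPM of Pdgfa and those with fewer held 108 and 52.1 CPM (30 and 17 UMIs). The 2 neuron clusters differed, with 76.3 and 60.0 CPM in the larger, of 693 cells, and 28.8 and 30.1 CPM in the smaller, of 151 cells. An unnamed cluster of 829 cells with low UMI counts, left out of the classes, held 114 and 77.4 CPM.

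Within glia, non-myelinating Schwann cells and satellite glia differed in 5 of the 6 genes (background 27.6%). Pdgfa had 199.5 ± 1.80 CPM in non-myelinating Schwann cells and 122 ± 4.37 CPM in satellite glia (log2 0.57, SE 0.07, adjusted p = 2.80e-10). By cluster, which was not tested, the larger Schwann cluster held 155.8 and 156.1 CPM and the smaller satellite glia cluster 149.8 and 147 CPM. Pdgfd had 8.63 ± 0.216 CPM in non-myelinating Schwann cells and 2.53 ± 0.0791 CPM in satellite glia, a 3.06-fold difference (SE of log2 0.33, adjusted p = 3.71e-05). With coarser clustering (resolution 0.5) 4 of these calls ended, Pdgfa at 0.09, Pdgfb at 0.30, Pdgfrb at -0.31 and Pdgfc at 0.09, the last against -1.08 in the main grouping. Myelinating Schwann cells and non-myelinating Schwann cells differed in 4 genes (background 15.2%), led by Pdgfa with 48.3 ± 4.94 CPM in myelinating and 199.5 ± 1.80 CPM in non-myelinating cells (log2 -2.09, SE 0.20, adjusted p = 4.18e-16). The other calls there rest on few molecules, and Pdgfb, with 2 and 0 UMIs in myelinating cells, had a log2 difference of -2.71 (95% interval -4.32 to -1.09) that was -8.10 without library 1 and -1.61 without library 2. That of Pdgfrb was 1.51, and 0.43 without library 2. The calls of Pdgfb, Pdgfc and Pdgfrb each ended under at least 1 alternative.

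Pdgfc was low in all named populations, and higher in an unnamed cluster described with the macrophages. Its highest levels were 20.7 and 32.7 CPM in smooth muscle and 22.5 and 18.8 CPM in venous endothelium, which overlapped. Undivided glia with 15.1 and 13.5 CPM, macrophages with 14.9 and 12.3 CPM, myelinating Schwann cells with 11.8 and 14.9 CPM and capillary endothelium with 9.25 and 15.3 CPM followed. Neurons held 2.23 and 0.414 CPM, and mast cells and T or NK cells none. In the class comparisons mural cells, at 17.9 ± 3.95 CPM, exceeded neurons, at 1.32 ± 1.28 CPM (log2 3.83, SE 0.47, adjusted p = 3.33e-12), with values of 5.65 without library 1 and 2.94 without library 2. Fibroblasts, at 2.06 ± 0.714 CPM, lay below endothelium, at 13.1 ± 2.03 CPM (log2 -2.59, SE 0.30, adjusted p = 2.28e-13). Pdgfc thus had no single leading population among those named by markers.

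Among endothelial beds the ligands had different orders. Arterial and venous cells differed in 4 genes (background 12.2%): Pdgfb had 290.1 ± 5.79 CPM in arterial and 111 ± 17.8 CPM in venous cells (log2 1.07, SE 0.15, adjusted p = 3.09e-09). Pdgfc ran the other way, with 1.66 and 3.61 CPM in arterial and 22.5 and 18.8 CPM in venous cells (log2 -3.27, SE 0.69, adjusted p = 1.45e-04, and -4.01 without library 2). Pdgfa had 18.3 and 28.9 CPM in arterial and 8.80 and 4.69 CPM in venous cells (log2 1.49, adjusted p = 0.0332), with 2.27 without library 1 and 0.75 without library 2, and the call ended with all UMIs (adjusted p = 0.0638), with doublets kept (adjusted p = 0.0950) and with thinning (adjusted p = 0.846). Of all genes called in this pair, 37.7% were higher in arterial cells with TMM factors and 69.0% with library totals alone. Pdgfd passed narrowly (log2 0.29, adjusted p = 0.0303) and did not pass under 8 alternatives.

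Arterial and capillary cells differed in 3 genes (background 7.34%), Pdgfb (log2 0.37, adjusted p = 0.0395), Pdgfc (log2 -2.30, adjusted p = 0.0391) and Pdgfd (log2 0.26, adjusted p = 0.0481), and all 3 calls ended with DESeq2, without the library term and with another random split. That of Pdgfd also ended without the shared barcodes (adjusted p = 0.0511). Venous and capillary cells differed in 1 gene (background 8.23%), Pdgfb, with 111 ± 17.8 CPM in venous and 209.8 ± 12.9 CPM in capillary cells (log2 -0.71, SE 0.13, adjusted p = 1.00e-05). Pdgfc, at 20.6 ± 2.63 CPM in venous and 12.3 ± 4.25 CPM in capillary cells, did not pass (log2 0.97, 95% interval 0.28 to 1.66, adjusted p = 0.0733), but it passed with all UMIs (log2 1.37, adjusted p = 7.48e-05), with another random split (log2 2.41, adjusted p = 7.40e-09), with doublets kept (log2 1.34, adjusted p = 0.0191) and with only the populations compared (log2 0.96, adjusted p = 0.0272). The venous and capillary levels of Pdgfd, 454 ± 35.0 and 533 ± 28.6 CPM, gave no difference that passed the test (log2 -0.03, 95% interval -0.19 to 0.14, adjusted p = 0.940). Of the Pdgfb comparisons among endothelial beds, both with venous cells passed under every alternative that gave a test.

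**Figure D3:**
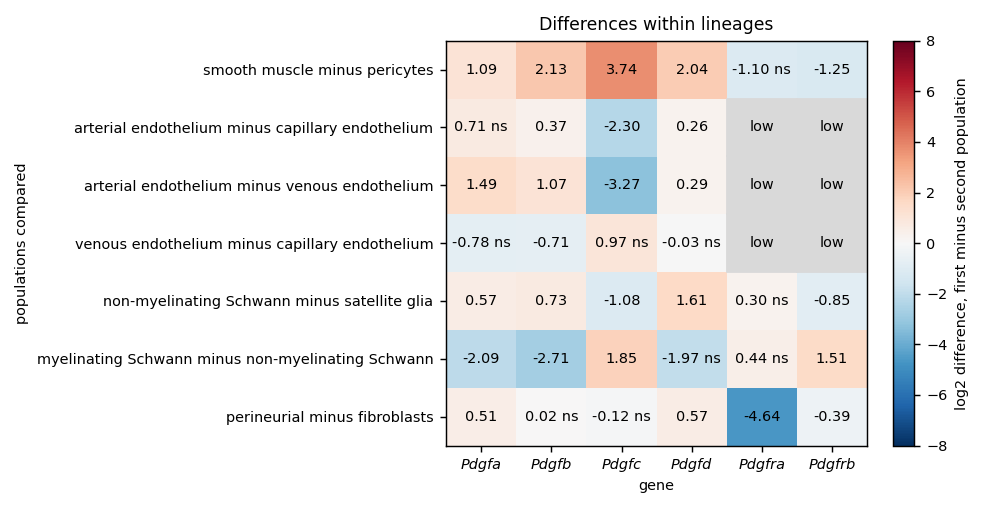
Log2 difference of each PDGF gene between related populations, first over second; ns marks a difference that did not pass an adjusted p of 0.05 and grey cells marked low give no fold. The columns show Pdgfrb lower (-1.25) and 4 ligands higher in smooth muscle than in pericytes, and Pdgfra lower in perineurial cells than in fibroblasts (-4.64).

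Perineurial cells and fibroblasts differed in 4 genes (background 36.8%). Pdgfra had 24.3 ± 3.48 CPM in perineurial cells and 554 ± 7.91 CPM in fibroblasts, which were 24.9-fold higher (log2 of perineurial cells over fibroblasts -4.64, SE 0.10, adjusted p = 5.42e-65). Pdgfrb was close, at 66.9 ± 7.46 CPM in perineurial cells and 79.2 ± 1.04 CPM in fibroblasts (log2 -0.39, SE 0.10, adjusted p = 6.41e-04), and did not pass with DESeq2 (adjusted p = 0.118). Perineurial cells thus had nearly the fibroblast level of the beta receptor with far less of the alpha receptor. The fibroblast list summed to 17714 and 17125 CPM in perineurial cells and 51619 and 51530 CPM in fibroblasts, and its part in the Pdgfra level of perineurial cells was not tested. The perineurial cluster had 8 of 8 perineurial markers detected in at least 10% of cells. Its 10 leading genes held Lypd2 and Cldn1 of that list and Krt19 of the mesothelial list. No list served to set other sheath cells apart. Pdgfd had 45.4 and 53.1 CPM in perineurial cells and 29.7 and 30.3 CPM in fibroblasts (log2 0.57, SE 0.13, adjusted p = 2.31e-04), but 0.07 at clustering resolution 2 and 0.20 with doublets kept, neither of which passed. Pdgfa had 27.4 and 21.8 CPM in perineurial cells and 15.8 CPM in both libraries of fibroblasts (log2 0.51, adjusted p = 0.0122), and this call ended with doublets kept (log2 0.16) and with thinning. Over the 7 pairs of related populations, 26 of 42 comparisons passed (16 higher and 10 lower), where 17.9% of all comparisons of genes did.

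The fibroblasts fell into 4 clusters that were made without the 6 genes and are described without a test. The cluster led by C7, C3 and Inmt (878 cells) held 131 and 125 CPM of Pdgfd. The cluster led by Smim41, Cxcl1 and Ccl11 (1839 cells) held 6.6 and 11.1 CPM, that led by Bmp5, Dlk1 and Apod (1371 cells) 7.1 and 8.3 CPM and that led by Egfros, 4930474M22Rik and Fat3 (446 cells) 10.0 and 12.1 CPM. Most of the Pdgfd of fibroblasts was therefore in 1 of the 4 clusters, and the class mean stands for none of them. The Fat3 cluster held 1019 and 1062 CPM of Pdgfra and 112 and 152 CPM of Pdgfrb, above the other 3, and also 87868 and 94389 CPM of Malat1, a nuclear RNA, where the other 3 held 27963 to 43103 CPM; the part of nuclear RNA in those levels was not tested.

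The 2 macrophage clusters both held Pdgfb and Pdgfc, in opposite orders, which were not tested. Pdgfb had 58.0 and 66.2 CPM in the cluster led by Pf4 and Mrc1 and 115 and 151 CPM in that led by Ccl4 and Ccl3. Pdgfc had 20.8 and 18.9 CPM in the Pf4 cluster and 6.4 and 2.9 CPM in the Ccl4 cluster. A further cluster of 131 cells was led by Cd209f, Folr2 and Lyve1. It scored highest for the macrophage list, with 8 of its 9 markers detected in at least 10% of cells. It stayed unnamed because Lyve1 is on the lymphatic endothelial list, and it held 169.7 and 132 CPM of Pdgfc.

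**Figure D4:**
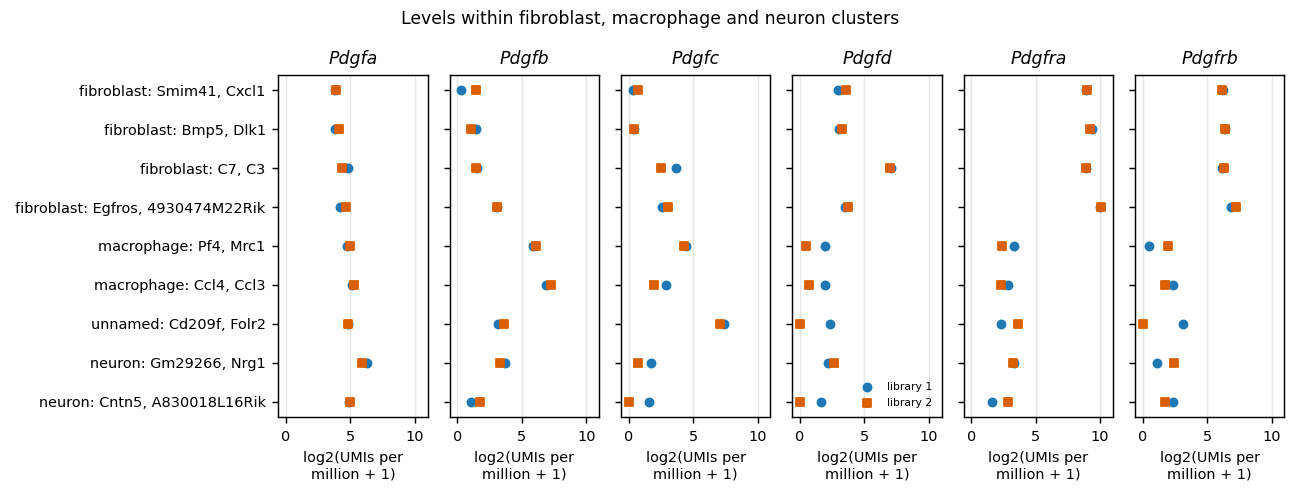
Levels of the PDGF genes as log2(CPM + 1) in each cluster of fibroblasts, macrophages and neurons and in the unnamed cluster led by Cd209f, Folr2 and Lyve1, with a point per library. Pdgfd reaches 131 and 125 CPM in the C7 fibroblast cluster, and Pdgfc its highest level, 169.7 and 132 CPM, in the Cd209f cluster.

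Of the smaller populations, dendritic cells held 36.8 and 35.5 CPM of Pdgfb (83 and 94 UMIs) and under 20 CPM of each other PDGF gene. Undivided glia, with the Pdgfa and Pdgfc levels given above, held Malat1 at 116856 and 123583 CPM, and the part of nuclear RNA in their levels was not tested. Lymphatic endothelium, mast cells and T or NK cells had 29 to 63 cells per library, and no PDGF gene reached 13 UMIs in a library there, so their levels have little weight. Lymphatic endothelium gave 12 and 1 UMIs of Pdgfb, which show this spread.

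In single cells, thinned to 1500 UMIs each, a Pdgfra molecule was found in 51.9% of fibroblasts of library 1 (exact Clopper-Pearson 95% interval 49.8 to 54.0%) and 51.8% of library 2 (49.7 to 53.8%), against 1.15% and 0.194% of macrophages, taken as cells that lack it. Unthinned, at medians of 7927 and 8398 UMIs per cell, the fibroblast shares were 90.4% and 90.0%. Pdgfrb was found in 67.5% and 67.4% of pericytes, 35.8% and 35.3% of smooth muscle cells and 11.6% and 10.5% of fibroblasts, against 0% (0 of 1040 cells, which at this thinned depth allows a share with a molecule of up to 0.288%, the limit of 3 counts) and 0.291% of macrophages. Unthinned, Pdgfrb was found in 41.2% and 44.4% of fibroblasts and 1.25% and 1.55% of macrophages. All intervals cover counting error only. The receptor shares thus followed the levels, and the beta receptor of fibroblasts was well above the macrophage share.

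Pdgfd was found in 49.6% and 53.3% of arterial, 42.2% and 41.6% of capillary and 44.5% and 42.6% of venous cells, against 0.288% and 0.194% of macrophages. Pdgfb was found in 36.4% and 43.9% of arterial, 24.6% and 24.2% of capillary and 13.2% and 15.3% of venous cells and 9.33% and 11.9% of macrophages, against 0.222% and 0.131% of fibroblasts. Pdgfa was found in 34.3% and 27.2% of smooth muscle cells, 24.3% and 22.5% of non-myelinating Schwann cells and 8.72% and 9.07% of neurons, against 2.40% and 2.98% of fibroblasts. The unthinned shares were 84.3% and 90.7% for Pdgfb in arterial cells and 80.9% and 80.6% for Pdgfa in smooth muscle.

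Both receptors were found together in 5.87% and 5.51% of thinned fibroblasts. Pdgfrb was found in 11.3% and 10.7% of fibroblasts with a Pdgfra molecule and 11.9% and 10.3% of those without one. At this depth, detection of the alpha receptor did not go with a visibly different share of the beta receptor. In arterial cells, 21.5% and 22.4% held both Pdgfb and Pdgfd. In smooth muscle, 8.66% and 6.25% held both Pdgfd and Pdgfrb (48.1% and 45.0% unthinned), and both Pdgfa and Pdgfrb were found in 68.7% and 66.9% of unthinned cells. Ligand and receptor transcripts therefore occurred in the same droplets of smooth muscle.

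**Figure D5:**
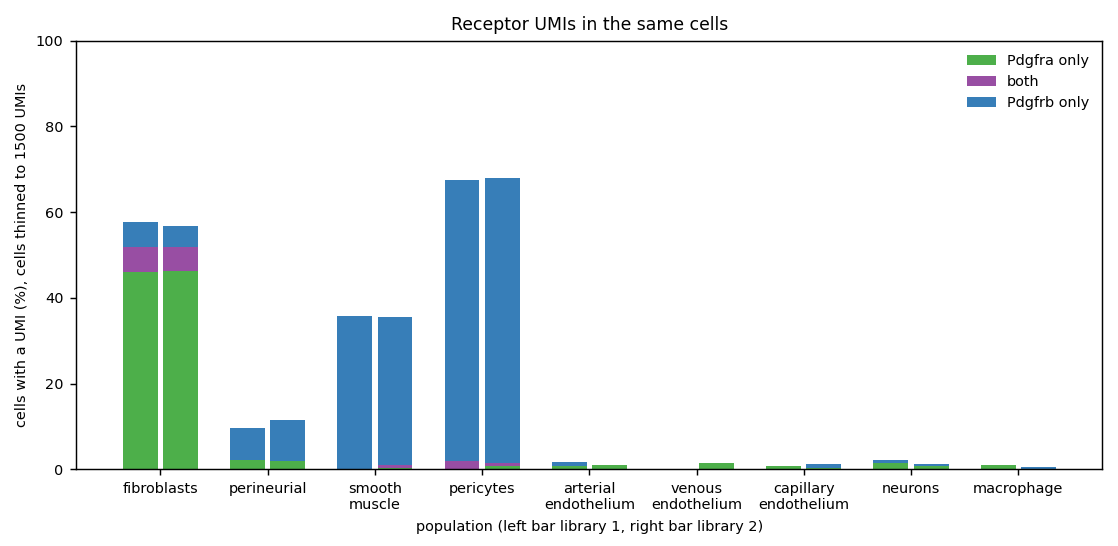
Share of cells (percent) with Pdgfra alone, Pdgfrb alone or both, after thinning to 1500 UMIs, with library 1 on the left and library 2 on the right of each pair of bars. Of the fibroblasts 46.0% and 46.3% have Pdgfra alone and 42.4% and 43.2% neither receptor, and of the pericytes 65.7% and 66.7% have Pdgfrb alone.

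Across the 17 populations the genes with the most similar levels were sought among 15585 genes by Pearson's r of log2(CPM + 1); populations of 1 suspension share droplets and libraries, so r is given as a description. Pdgfra was most like Srpx2 and Lum (r = 0.94 each), the second a fibroblast marker used for naming. Pdgfrb was most like Gm42397 (r = 0.93) and Prrx1 (r = 0.92), a transcription factor of mesenchymal cells. Pdgfd was most like Fzd4 (r = 0.95), a Wnt and Norrin receptor of vessels, and Pcp4l1 (r = 0.94). Pdgfb was most like Rasgrp3 (r = 0.91) and Abi3, Pdgfa like Atp1b2, S1pr3 and Synpo2 (r = 0.90 each), and Pdgfc less closely like Kbtbd4 and Mertk (r = 0.76 each). Between the PDGF genes themselves r was 0.55 for Pdgfra and Pdgfrb, 0.52 for Pdgfa and Pdgfrb, 0.44 for Pdgfb and Pdgfd, -0.61 for Pdgfb and Pdgfrb, -0.58 for Pdgfb and Pdgfra and 0.11 for Pdgfd and Pdgfrb. Of the endothelial ligands, Pdgfb thus tended to be low where either receptor was high, and Pdgfd had little relation to the beta receptor.

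The genes around the receptors were read from a list of 47 pathway genes, 46 of them tested, each class against the mean of the other 4. These genes were not kept out of the grouping of cells. In fibroblasts 27 were higher, 15 lower and 4 did not pass (61.1% of all genes passed in either direction), with a median log2 difference of 0.40 over the list and -0.05 over all genes. Of the 11 genes that activate or retain ligands, 10 were higher, where 30.7% of all genes tested were higher. Among the 10 were Thbs1, which encodes the matrix protein thrombospondin 1, at 264 ± 11.6 CPM (other classes 3.70 to 30.7, log2 5.14, SE 0.08), and Sparc, a matrix protein that binds PDGF-B, at 8823 ± 361 CPM. Lrp1, an endocytic partner of the beta receptor, stood at 452 ± 13.2 CPM in fibroblasts (other classes 3.94 to 119, log2 3.85, SE 0.06). Spry1, a feedback inhibitor of receptor tyrosine kinases, stood at 135 ± 3.28 CPM in fibroblasts (other classes 3.32 to 112, log2 2.88). Spry1 was also high in endothelium, at 112 ± 6.02 CPM (log2 2.47), and in mural cells, at 72.9 and 57.3 CPM (log2 1.39). It was low in neurons, at 7.44 and 7.04 CPM, and in glia, at 3.50 and 3.15 CPM.

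In mural cells 14 were higher, 13 lower and 19 did not pass (42.6% of all genes passed), the class with the fewest calls. Pdgfrl, a PDGF receptor-like gene, stood at 30.7 ± 1.52 CPM there (other classes 2.64 to 23.7; log2 1.97, SE 0.22). In endothelium 28 were higher, 13 lower and 5 did not pass (60.4% of all genes). Nrp1, a co-receptor of vascular growth factors, stood at 815 ± 36.0 CPM (other classes 76.5 to 409; log2 2.30, SE 0.05), and the effectors Stat3 at 481 ± 32.9 CPM and Plcg1 at 135 ± 1.19 CPM were higher too. Lrp1 was at 3.94 ± 1.15 CPM in endothelium (log2 -4.75, SE 0.18) and the kinase gene Src at 1.89 ± 1.06 CPM (log2 -3.18, SE 0.28), the lowest of the 5 classes.

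In neurons 7 were higher, 29 lower and 10 did not pass (67.2% of all genes), with a median of -0.66 over the list and -0.02 over all genes. All 11 genes that activate or retain ligands were lower, where 33% of all genes tested were lower. Sparc stood at 294 ± 38.7 CPM (other classes 1451 to 8823, log2 -3.67, SE 0.16) and Hspg2, the perlecan gene, at 18.3 ± 1.93 CPM. In glia 19 were higher, 20 lower and 7 did not pass (59.4% of all genes). Ptprj, a phosphatase that acts on the beta receptor, stood at 435 ± 11.8 CPM (other classes 23.6 to 78.7; log2 3.48, SE 0.06), and Pcsk6, a protease of the furin family, at 22.7 ± 0.206 CPM (log2 2.71). Spry1 stood at 3.32 ± 0.243 CPM (log2 -3.96, SE 0.17). The 5 classes together gave 185 called of 230 comparisons, where 47221 of 81225 comparisons of all genes were called.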

How the data were processed

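The authors deposited whole-number counts of UMIs per gene and cell barcode, 1 table per library; Cell Ranger 6.1.2 and the build mm10 are named per the submitters' processing notes. The sources used here do not give the annotation release, the use of introns and strand, or any filter on cells. The deposited barcodes ranged from 1501 to 44696 UMIs in library 1 and from 1501 to 44898 UMIs in library 2. Their highest mitochondrial shares were 9.995% and 9.998%. Cells outside these ranges were thus absent before the filter used here. The 6 genes, the marker lists and the pathway list were chosen with earlier results of these data known.

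Barcodes with at least 500 genes, 1000 UMIs and under 20% mitochondrial UMIs were kept, which removed 0 and 1 barcodes of libraries 1 and 2. Scrublet calls in scanpy 1.11.5 (Python 3.11.15) removed 664 (5.27%) and 704 (5.73%) barcodes as likely doublets. The UMIs of a cell were divided at random, each with probability 0.5. One portion, without the 6 genes, was clustered (3000 variable genes, 30 components, 15 neighbours, Leiden resolution 1), and clusters were named from 25 marker lists; clusters that could not be named stayed unnamed. The other portion was summed per library and population, as 11 classes or 17 populations. CPM are these sums per 1000000.

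Differences were tested with edgeR 4.0.16 (R 4.3.3) by its quasi-likelihood test with a library term, TMM factors, filterByExpr and Benjamini-Hochberg adjustment within each contrast at 0.05. The term pairs sums that come from the same library, so it follows from the design. The spread was shared over all populations, with 10 residual degrees of freedom for classes and 16 for populations. The number of libraries and counting error limit the precision. The libraries differed by more than counting error (median chi-square per gene 0.63 to 2.22 over the 11 classes, against 0.455 for counting error alone). No fold is given where neither population had 10 UMIs in each library. DESeq2 1.42.0 served as an alternative. On simulated counts of 16050 genes for fibroblasts and mural cells, 75.7% of 2-fold and 100% of 4-fold changes were recovered and 0.00631% of unchanged genes were called. The simulation had no difference between libraries and a fixed dispersion, above the common value of 0.001017 fitted to the data. Its changed genes were drawn only from those with many UMIs. These rates therefore do not describe the tests of PDGF genes that rest on few UMIs.

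All 6 genes were named in every comparison. Pathway genes were named by rule, as the largest called differences per class and role, and similar genes as the 5 of highest correlation.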

Additional observations from a re-analysis of the deposited data

Results flagged for a closer look

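Pdgfc in the cluster led by Cd209f, Folr2 and Lyve1 averaged 151 CPM, with 169.7 and 132 CPM in libraries 1 and 2 (± 26.3, SD, n = 2; 43 and 35 UMIs). The cluster held 131 cells and entered no comparison of the report. It scored highest for the macrophage list, with 8 of its 9 markers detected in at least 10% of cells. It was left unnamed because its leading genes held a marker of the lymphatic endothelial list, Lyve1, and none of the macrophage list. In the named populations the highest Pdgfc level was 22.5 CPM in library 1 and 32.7 CPM in library 2. The difference was not tested, since cells of an unnamed cluster belong to no class fixed by markers.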

How the results depend on the processing

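The count of PDGF gene comparisons that passed between main classes was 52 of 60 with the library term and also 52 of 60 without the replicate block; within lineages it was 26 of 42 and, without the replicate block, 22 of 42, and for pathway genes 185 of 230 and 178 of 230. Over the alternatives other than thinning, 50 to 58 of the class comparisons and 19 to 27 of the lineage comparisons passed. With cells thinned to equal UMIs, which leaves fewer molecules and fewer genes tested, 36 of 50 class comparisons passed, 8 of 35 within lineages, 119 of 225 for pathway genes, and over all genes 39280 of 106510 between classes (main 93214 of 162450), 6942 of 62587 within lineages (main 20378 of 113841) and 19090 of 53255 for a class against the others (main 47221 of 81225). Of 95 single comparisons, 53 of the 78 called kept direction and call under every alternative that gave a test. These also kept direction with either library left out, where no call is possible. Thinning did not give a test for every comparison. Of 1692 values 67 kept direction and lost the call, 26 kept direction and gained it, and 26 changed sign. Among the last were 5 from a called value, which also lost the call, and 1 that passed in the other direction. The cause was not tested.

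The log2 values that changed sign were these. With thinning, Pdgfa became -0.15 in fibroblasts over endothelium, -0.25 in arterial over capillary cells and -0.21 in perineurial cells over fibroblasts, Pdgfd -0.0467 in arterial over capillary cells, and Pdgfra -0.47, -0.84 and -0.18 in mural cells over endothelium, neurons and glia, 0.30 in endothelium over glia, 4.09 in smooth muscle over pericytes and -3.62 in myelinating over non-myelinating Schwann cells. With another random split, Pdgfra became -0.0244 in mural cells over neurons and 0.0542 in endothelium over glia, Pdgfd 0.18 in venous over capillary cells and Pdgfc 0.15 in perineurial cells over fibroblasts. With all UMIs these last became 0.0409 and 0.13, and Pdgfra -0.12 in myelinating over non-myelinating Schwann cells. With doublets kept, Pdgfra became 2.19 in smooth muscle over pericytes and Pdgfb -0.15 in perineurial cells over fibroblasts. Pdgfd in venous over capillary cells became 0.0976 at resolution 0.5 and 0.0943 at resolution 2, Pdgfc in non-myelinating Schwann cells over satellite glia 0.0915 at resolution 0.5, and Pdgfb in perineurial cells over fibroblasts -0.20 at resolution 2, -0.0337 with no filter on low counts and -0.0003 with the 6 genes among those clustered. With library totals only, Pdgfc became 0.0206 in perineurial cells over fibroblasts. Leaving out the barcodes shared by both libraries and counting the low-UMI cluster as neurons were chosen after seeing the data and gave 53 and 54 of 60. With 1 library left out there is no residual spread, so those values carry no test. Low UMI counts limit Pdgfc in pericytes, arterial endothelium and neurons and both receptors in endothelium and neurons.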
